A study of Mus musculus with 36 samples.

Results

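The subunits of cohesin and condensin I were followed as 10 genes, taken by gene symbol from the 54842 genes counted in each library. Cohesin was represented by Smc1a, Smc3, Rad21, Stag1 and Stag2, and condensin I by Smc2, Smc4, Ncapd2, Ncapg and Ncaph. Total RNA was sequenced from mouse embryonic fibroblasts (MEF) of 2 lines that carry a guide RNA against the major satellite repeat (MSR), the tandem repeat of mouse pericentromeric heterochromatin, together with a doxycycline-inducible, catalytically inactive Cas9 (dCas9). In the MSR-dCas9-Control line dCas9 lacked an activator, and in the MSR-dCas9-Activator line it was fused to the transcriptional activator VPR. Each line was sampled in 6 stages: uninduced, induced with 10 ng/ml doxycycline (for 24 h in the Control line and for 6 h in the Activator line), and then 3 h, 6 h, 12 h or 24 h after the end of induction. With 3 replicates of each of the 12 groups there were 36 libraries. Both lines expressed the guide constitutively, were made by transposon insertion and were kept as mixed cultures, not as clones. The length of doxycycline treatment differed between the lines at every induced stage and cannot be told apart from the effector.

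Cohesin is a ring that holds sister chromatids together from replication until anaphase and extrudes chromatin loops in interphase. Its core is the ATPase pair Smc1a and Smc3, closed by the kleisin Rad21, to which either Stag1 or Stag2 binds. Condensin I is the related ring that compacts mitotic chromosomes, built from the ATPases Smc2 and Smc4, the kleisin Ncaph and the HEAT-repeat subunits Ncapd2 and Ncapg. Smc2 and Smc4 are shared with condensin II, which has its own kleisin and HEAT-repeat subunits. Condensin genes and several cohesin regulators are transcribed mainly in cycling cells, and cohesin is enriched at pericentromeric chromatin, where MSR repeats lie.

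The libraries held 27376846 to 57371803 counts on genes (median 42865961), and the 10 subunits had between 1518 counts (the lowest library for Ncaph) and 23262 counts (the highest for Rad21), so all 10 passed the filter on low counts. The satellite family GSAT_MM, which holds the MSR, took 0.00178 to 0.00396% of all gene and repeat counts in Control libraries, 0.00430 to 0.00804% in uninduced Activator libraries and 0.189 to 2.78% in the other Activator libraries. The fibroblast collagen gene Col1a1 lay between 2622 and 14187 TMM-normalised CPM (counts scaled to library size) over the libraries, whereas Thy1, another marker often used for fibroblasts, had at most 6 counts in a library. Activator replicate 2 stood apart from the other Activator replicates: it correlated least with the other replicates of its group at all 5 stages from induction on (for example, with a mean r of 0.965 at 6 h, when replicates 1 and 3 had 0.974 and 0.982) and was the lowest replicate for 8, 10, 10, 9 and 9 of the 10 subunits at the induced, 3, 6, 12 and 24 h stages. Because RNA was measured in bulk, fewer cycling cells and less RNA per cell cannot be told apart.

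In the uninduced Control line the subunits spanned a wide range of levels, given here as CPM per kilobase of exon, so that genes of different length can be set side by side. Rad21 led with 61.9 ± 1.70 (SD, n = 3), followed by Smc4 with 51.5 ± 1.18. Smc2 (36.7 ± 1.07) and Ncapd2 (34.6 ± 0.963) came next, then Smc3 (27.8 ± 0.748) and Stag2 (22.1 ± 0.976). Smc1a (18.39 ± 1.497) and Ncaph (16.24 ± 1.5004) had overlapping replicates. Ncapg (10.4 ± 0.198) and Stag1 (9.18 ± 0.541) were the lowest. The 2 partners of a dimer were thus unequal at the RNA level, Smc3 above Smc1a and Smc4 above Smc2, and Stag2 exceeded Stag1 per kilobase. Apart from Smc1a and Ncaph, neighbours in this order did not overlap between replicates. Rad21 kept the top place in all 12 groups, while Smc2 passed Smc4 in the Activator line at 3 and 6 h.

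In the Control line no subunit passed the test at a later stage. Compared with uninduced Control cells, the quasi-likelihood test of edgeR, with p-values adjusted over all genes tested (Benjamini-Hochberg), called 0 of the 10 subunits at the induced, 3, 6, 12 and 24 h stages, where it called 0.214, 0.55, 0.403, 1.05 and 0.788% of the 28536 genes tested. At an unadjusted p under 0.05 the counts of subunits were 1, 0, 0, 2 and 0, beside 2064, 2524, 2454, 2927 and 3233 of the 28536 genes. All 3 libraries of a later stage nevertheless lay above all 3 uninduced libraries for 5, 4, 1, 5 and 2 subunits at these stages, as for 6.87, 10.8, 9.8, 12.0 and 12.2% of all genes. The reverse held for 0 subunits at each stage and for 8.77, 10.2, 7.97, 10.8 and 10.3% of all genes. When only the 2 groups compared entered the fit, 3 subunits were called higher on induction and 1 at 24 h. That fit called 1076 of 20649 genes higher and 1429 lower on induction, and 1633 of 20954 higher and 2650 lower at 24 h. The highest group mean of a gene exceeded its lowest by 1.09-fold for Rad21 and by 1.21-fold for Smc1a, the extremes among the 10. Before induction the 2 lines did not differ by a called amount either (0 of 10 subunits, against 1.23% of genes). At an unadjusted p under 0.05 there were 1 subunit and 2963 of the 28536 genes. Ncaph was nearest, at 62.0, 54.6 and 50.2 CPM in the uninduced Activator libraries and 76.5, 69.8 and 63.5 CPM in Control, a log2 difference of -0.33 ± 0.12 (standard error, adjusted p = 0.230). The uninduced log2 differences of all 10 subunits nevertheless lay below the median of all genes, with medians of -0.12 and 0.03. For 3 subunits every uninduced Activator library lay below every uninduced Control library, as for 7.93% of all genes.

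**Figure D1:**
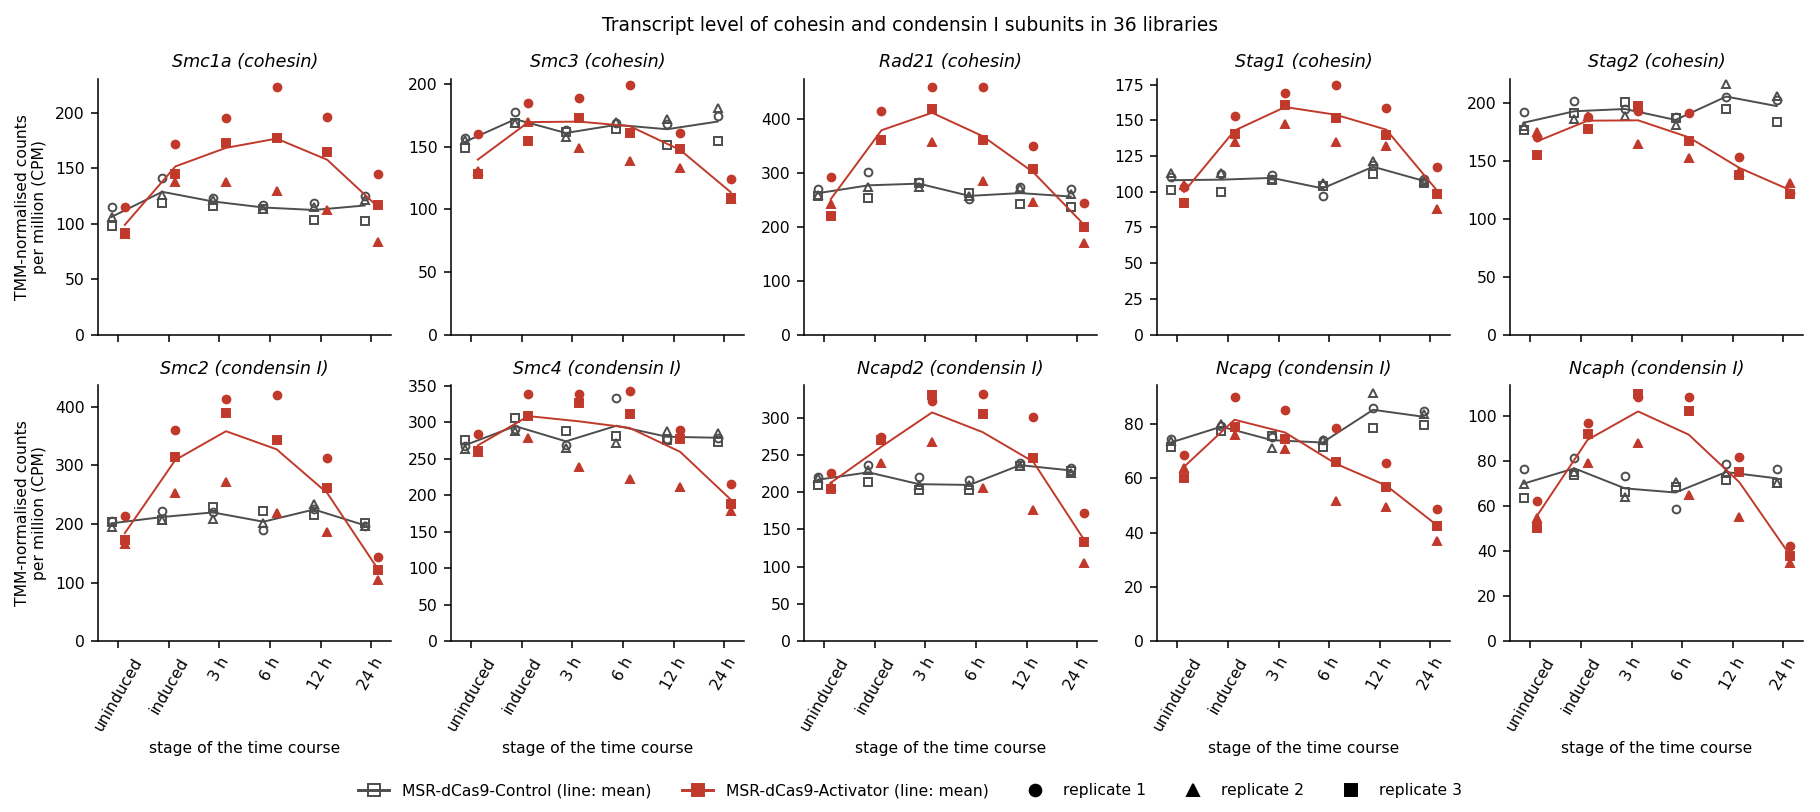
TMM-normalised CPM (y axis, from 0) of the 10 subunits at each stage (x axis), one point per library, with lines through the means of 3 replicates. Control points (open) stay in a narrow band, Activator points (filled) bend upwards at 3 and 6 h for genes such as Rad21, Stag1, Smc2 and Ncaph and drop at 24 h, and the triangles of Activator replicate 2 are the lowest in most panels.

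During and just after induction, some subunits of each complex were called higher in Activator than in Control cells under TMM scaling. At the induced stage their number was near the share of all genes called higher. Of the 10 subunits, 3 were called higher at the induced stage (Rad21, Stag1 and Smc2), where 31.7% of all genes were called higher. At 3 h there were 6, against 39.6% of all genes, and at 6 h again 6, against 40.8%: Smc1a, Rad21, Stag1, Smc2, Ncapd2 and Ncaph at both times. No subunit was called lower at these 3 stages, when 25.5, 31.4 and 33.3% of all genes were. The study's limits of a mean count over 100, a fold over 2 and an adjusted p under 0.05 were passed by 0 subunits and by 8.49, 12.8 and 13.9% of all genes. The median log2 difference of the 10 subunits was 0.21, 0.50 and 0.43 at the induced, 3 and 6 h stages, against 0.10, 0.16 and 0.13 for all genes tested. The commonly used reference genes moved the same way at 3 h, by 0.37 for Actb, 0.41 for Gapdh and 0.23 for Hprt, of which the first pair was called.

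Among the cohesin genes, Rad21 (chromosome 15, 51962240 to 51991747, GRCm38, minus strand) encodes the kleisin that closes the ring. It stood at 459, 356 and 418 CPM in the 3 Activator libraries at 3 h and at 283, 274 and 281 CPM in the Control libraries. The groups did not overlap, and the log2 difference was 0.55 ± 0.11 (adjusted p = 5.87e-05). Stag1 (chromosome 9, 100597798 to 100959375, plus strand), the less abundant of the STAG subunits here, stood at 169, 148 and 161 CPM against 112, 109 and 108 CPM, again without overlap, a log2 difference of 0.54 ± 0.09 (adjusted p = 3.17e-06). Smc1a (chromosome X, 152016428 to 152062694, plus strand) had its highest Activator mean at 6 h, with 224, 129 and 177 CPM against 117, 114 and 113 CPM. Its Activator means at 3 h (168 ± 29.2 CPM) and 6 h (177 ± 47.2 CPM) differed by less than either SD. At 6 h all 3 Activator libraries were above Control, although replicate 2 exceeded the highest Control library by little. The log2 difference was 0.60 ± 0.13 (adjusted p = 0.000230). The test shares an estimate of the spread over the 12 groups, whereas the SD here was 47.2 CPM in Activator and 2.35 CPM in Control.

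The other cohesin genes did not share this. Smc3 (chromosome 19, 53600398 to 53645833, plus strand), the partner of Smc1a, had overlapping groups at 3 h, with 189, 149 and 173 CPM in Activator and 163, 158 and 162 CPM in Control, and a log2 difference of 0.07 with a 95% interval of -0.10 to 0.25. Stag2 (chromosome X, 42149317 to 42277185, plus strand), the alternative to Stag1, stood at 194, 165 and 197 CPM against 195, 189 and 201 CPM, and its log2 difference was -0.08 with an interval of -0.23 to 0.07.

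Condensin I divided in the same manner. Smc2 (chromosome 4, 52439243 to 52488260, plus strand) showed the largest difference of the 10 subunits at 3 h: 414, 271 and 390 CPM in Activator against 220, 209 and 229 CPM in Control, a log2 difference of 0.69 ± 0.14 (adjusted p = 7.75e-05). Its Activator libraries all lay above the Control libraries, but spread over a wider range. The kleisin gene Ncaph (chromosome 2, 127103809 to 127133954, minus strand) stood at 108, 87.9 and 110 CPM against 73.4, 63.8 and 66.2 CPM, a log2 difference of 0.59 ± 0.12 (adjusted p = 8.26e-05), and Ncapd2 (chromosome 6, 125168007 to 125191701, minus strand) at 322, 268 and 331 CPM against 220, 209 and 203 CPM, a log2 difference of 0.54 ± 0.13 (adjusted p = 0.000397). Neither gene had overlapping groups, as was the case for 6 of the 10 subunits at 3 h and, in the higher direction, for 39.8% of all genes. Smc4 (chromosome 3, 69004738 to 69034623, plus strand) and Ncapg (chromosome 5, 45669919 to 45700546, plus strand) overlapped between the lines, with log2 differences of 0.13 (95% interval -0.08 to 0.33) and 0.05 (-0.14 to 0.24).

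These higher values depended on how the libraries were scaled and on replicate 2. When the libraries were scaled to the 13 mitochondrially encoded mRNAs, the median of all genes at 3 h moved by -0.60. Under this scaling 0 subunits were called higher at the induced, 3 or 6 h stages, with 4, 4 and 7 called lower. Of the 28536 genes tested, it called 5835, 6707 and 6840 higher and 10048, 13592 and 14797 lower at these stages. At 3 h the log2 differences then turned to -0.06 for Rad21, -0.07 for Stag1, -0.13 for Smc1a, -0.07 for Ncapd2 and -0.02 for Ncaph, and stayed above 0 at 0.08 for Smc2. The share of those mRNAs in gene counts was itself 2.02 to 2.98% in Activator and 1.61 to 1.84% in Control libraries at 3 h, and its part in the result was not tested. The subunits' median lay 0.34 above the median of all genes under this scaling and 0.35 above it under TMM. Without replicate 2 the test called 8, 10 and 8 subunits higher at the induced, 3 and 6 h stages, and at 6 h Smc3 and Smc4 then turned to 0.27 and 0.26. Without replicate 3 it called 0, 4 and 4, and without replicate 1 it called 3, 5 and 4 higher. The shares of all genes called without a replicate are not given here, so these counts cannot be set against them.

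**Figure D2:**
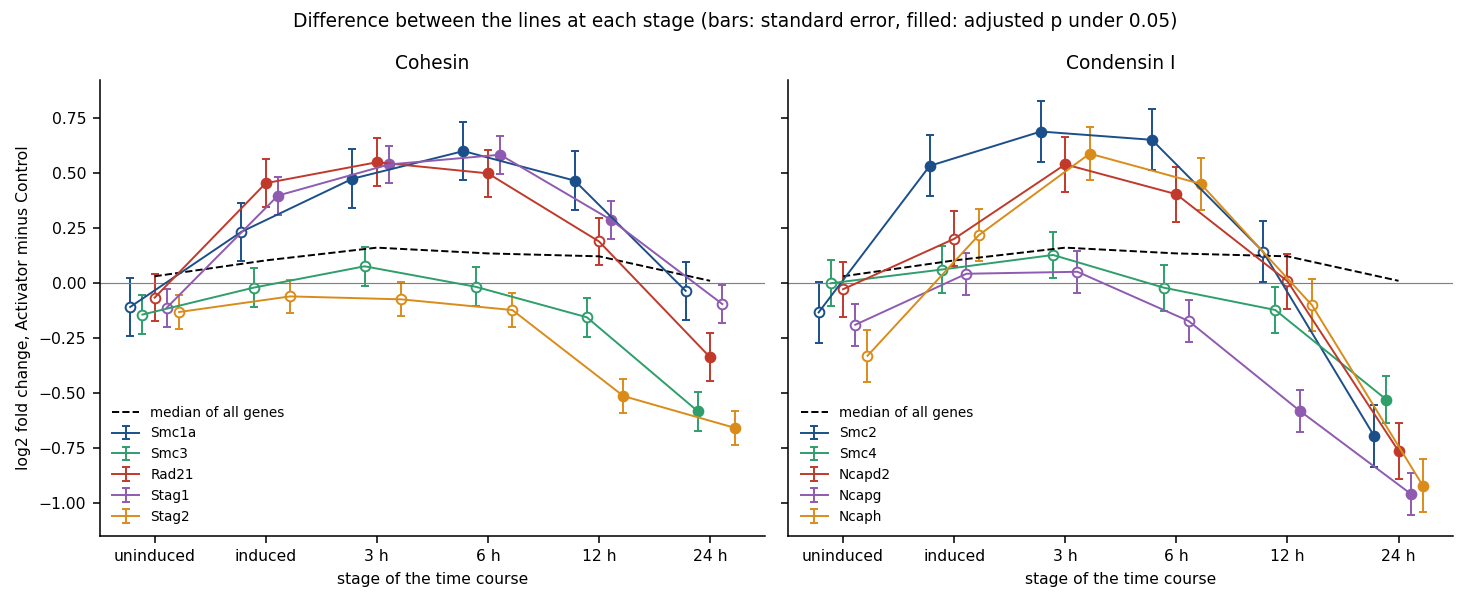
Log2 fold change of Activator over Control (y axis) at each stage (x axis) under TMM scaling for the cohesin genes (left) and the condensin I genes (right), with standard errors, filled where the adjusted p was under 0.05, and with the median of all genes dashed. Smc2 reached 0.69 and Stag2 -0.08 at 3 h, and at 24 h all 5 condensin genes lay between -0.53 and -0.96; scaling to mitochondrial mRNAs turned the differences of Smc1a, Rad21, Stag1, Ncapd2 and Ncaph at 3 h below 0.

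At 12 h the picture was mixed. Smc1a (0.46 ± 0.13, adjusted p = 0.00260) and Stag1 (0.28 ± 0.09, adjusted p = 0.00395) were still called higher under TMM scaling, 2 of 10 against 41.1% of all genes. Stag2 and Ncapg were called lower, 2 of 10 against 34.1%. Stag2 stood at 154, 141 and 138 CPM in Activator against 206, 216 and 195 CPM in Control, a log2 difference of -0.51 ± 0.08 (adjusted p = 8.51e-07). Ncapg stood at 65.7, 49.4 and 56.9 CPM against 85.9, 91.5 and 78.4 CPM, a log2 difference of -0.58 ± 0.10 (adjusted p = 3.90e-06). Every Activator library lay below every Control library for both genes, as for 33.7% of all genes, and both were called lower under all 18 alternatives of test, scaling, filter and libraries tried. The 2 higher calls were lost with repeats counted in the library size, without replicate 1 and without replicate 3. They turned to -0.17 and -0.33 under mitochondrial scaling, where 9 subunits and 13851 of 28536 genes were called lower. The number called was 2 without replicate 1, 7 without replicate 2 and 2 without replicate 3.

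By 24 h post-induction 8 of the 10 subunits were lower in Activator than in Control cells and 0 were higher, where 29.4% of all genes were called lower and 34.5% higher. All 5 condensin I genes were among the 8, together with Smc3, Rad21 and Stag2. The median log2 difference was -0.76 for condensin I and -0.34 for cohesin, against 0.01 for all genes. Smc1a and Stag1 were the exceptions. The study's limits were passed by 0 subunits and by 7.46% of all genes. For 7 of the 8 lower subunits, all but Rad21, every Activator library lay below every Control library, as for 28.8% of all genes.

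Ncapg had the largest difference, with 48.8, 36.8 and 42.6 CPM in the Activator libraries and 84.8, 83.7 and 79.7 CPM in the Control libraries, so that its Activator mean was 51.7% of the Control mean (log2 difference -0.96 ± 0.10, adjusted p = 1.82e-09). Ncaph followed with 42.1, 34.7 and 37.9 CPM against 76.4, 70.3 and 70.1 CPM, or 52.9% of Control (-0.92 ± 0.12, adjusted p = 1.77e-07). The groups of both genes were far apart compared with the spread within them. Ncapd2 stood at 171, 105 and 134 CPM against 233, 226 and 229 CPM (-0.76 ± 0.13, adjusted p = 6.62e-06), and Smc2 at 144, 105 and 121 CPM against 196, 196 and 202 CPM (-0.70 ± 0.14, adjusted p = 8.96e-05). Smc4 was at 69.6% of Control, with a log2 difference of -0.53 ± 0.11 (adjusted p = 8.15e-05). The condensin subunits that had been higher at 3 h and those that had not were therefore all below Control, without overlap, one day after induction.

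In cohesin, Stag2 stood at 122, 131 and 122 CPM against 203, 206 and 184 CPM (log2 difference -0.66 ± 0.08, adjusted p = 2.72e-08), and Smc3 at 124, 108 and 109 CPM against 175, 181 and 155 CPM (-0.58 ± 0.09, adjusted p = 2.12e-06). Rad21 overlapped between the lines, at 243, 169 and 199 CPM against 270, 260 and 237 CPM, and its log2 difference was the smallest of the 8 called, -0.34 ± 0.11 (adjusted p = 0.00769). It lost the call under 6 of 18 alternatives, DESeq2 and the fits without replicate 2, without replicate 3 and without replicate 3 of the Activator line alone among them. Smc1a stood at 145, 83.7 and 117 CPM against 125, 121 and 102 CPM, a log2 difference of -0.04 (95% interval -0.30 to 0.22), and was called higher, at 0.32, once replicate 2 was left out. Stag1 differed by -0.10 (-0.27 to 0.07). Across the same alternatives 6 to 9 subunits were called lower at 24 h. The count was 6 when only the 2 groups entered the fit and the calls of Rad21 and Smc4 were lost. That fit called 3732 of 23651 genes lower. Over all the alternatives the values of the 7 called subunits other than Rad21 stayed between -0.33 (Smc4) and -1.14 (Ncapg).

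**Figure D3:**
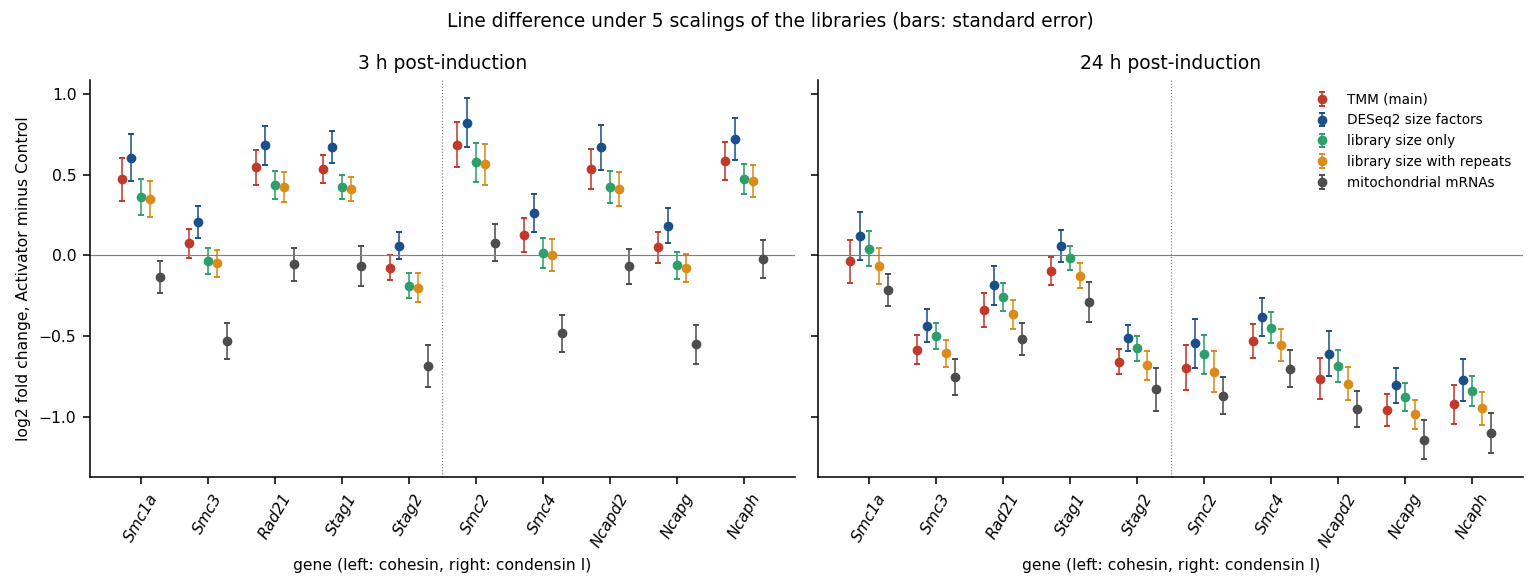
Log2 fold change of Activator over Control (y axis, with standard errors) for each subunit (x axis) at 3 h and at 24 h under 5 scalings of the libraries. At 3 h mitochondrial scaling moves all subunits down, for example Smc2 from 0.69 to 0.08 and Stag2 from -0.08 to -0.68, whereas at 24 h the condensin genes, Smc3, Rad21 and Stag2 lie below 0 under each of the 5.

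Within the Activator line the course over time was wide for some subunits and narrow for others. Smc2 went from a mean of 358 ± 76.7 CPM at 3 h to 123 ± 19.5 CPM at 24 h, a ratio of 2.90 between its highest and lowest stage. The corresponding ratios were 2.67 for Ncaph, 2.25 for Ncapd2, 2.02 for Rad21, 1.91 for Ncapg, 1.79 for Smc1a and 1.48 for Stag2. Ncapg and Smc4 had their highest mean at the induced stage, Smc1a at 6 h, and the other 7 at 3 h. Against uninduced Activator cells, 8 subunits were called higher at the induced stage (32.9% of all genes were), 8 at 3 h (39.8%), 7 at 6 h (40.5%), and 5 higher with 1 lower at 12 h (40.2 and 34.9%). At 24 h 8 were called lower than before induction (28.5% of genes), by 0.66 for Ncapd2 and 0.59 for Ncapg at the far end and by 0.29 for Smc3 at the near end of the log2 scale. The rise from the uninduced stage was lost under mitochondrial scaling, which called 0 subunits higher and 4 lower at the induced stage. Of 28536 genes it called 4878 higher and 13769 lower there. Without replicate 3, 5 subunits were called at the induced stage under TMM scaling. The fall at 24 h was called for 4 subunits when only the 2 groups entered the fit, which called 3893 of 23655 genes lower.

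Whether the change over time differed between the lines was tested directly as a difference of changes. On induction 4 subunits rose in Activator relative to Control (14.5% of all genes did): Smc2 by 0.67 ± 0.20 log2 units (adjusted p = 0.0104), Ncaph by 0.55 ± 0.17 (adjusted p = 0.0139), Rad21 by 0.52 ± 0.15 (adjusted p = 0.0103) and Stag1 by 0.51 ± 0.12 (adjusted p = 0.00221). From the uninduced stage to 24 h 7 subunits fell in Activator relative to Control (18.7% of genes did), from -0.77 ± 0.14 for Ncapg and -0.73 ± 0.18 for Ncapd2 to -0.44 ± 0.13 for Smc3. Between 12 and 24 h the line difference dropped for 6 subunits (6.38% of genes did), most for Smc2 (-0.84 ± 0.20, adjusted p = 0.00450), Ncaph (-0.82 ± 0.17, adjusted p = 0.00153) and Ncapd2 (-0.77 ± 0.18, adjusted p = 0.00379). These counts varied with the fit and the libraries. DESeq2, and edgeR with the size factors of DESeq2, each called 3 subunits for the change to 24 h, and mitochondrial scaling called 0 on induction and 0 from 12 to 24 h. Of 28536 genes, the first pair of fits called 4062 and 3615 lower. Mitochondrial scaling called 1882 genes higher and 6030 lower on induction, and 2684 higher and 80 lower from 12 to 24 h. Without replicate 3 the counts of subunits were 0, 2 and 0, and without replicate 2 they were 7, 7 and 9. Without replicate 1 they were 2, 3 and 0. Single libraries mattered too: the change to 24 h was called for 3 subunits without Control uninduced replicate 3 or without Activator 24 h replicate 3, and the change from 12 to 24 h for 3 without Control 12 h replicate 1 or 3, Control 24 h replicate 2, or Activator 12 h replicate 1 or 3. Averaged over the stages in an additive model, 3 subunits were higher in Activator (44.5% of genes), Smc1a, Rad21 and Stag1. In the same model 3 were lower (37.5% of genes), Smc3, Stag2 and Ncapg. Under mitochondrial scaling all 10 were called lower, as were 15330 of 28536 genes.

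Ratios between subunits within a library are unaffected by the scaling of that library. They were computed per kilobase of exon for 5 pairs chosen after the values had been seen, and tested at 6 stages by a two-sided exact permutation test, which with 3 against 3 libraries cannot give p below 0.1. The ratio of Stag2 to Stag1 was alike before induction, at 2.36, 2.38 and 2.40 in the Activator libraries and 2.486, 2.269 and 2.498 in the Control libraries. In Activator it was 1.85 ± 0.129 when induced, 1.58 ± 0.0273 at 6 h and 1.43 ± 0.0762 at 12 h, against 2.49 ± 0.0389 in Control at 12 h (exact permutation p = 0.1, adjusted p = 0.158 over 30 tests). At 24 h the Activator values spread again, to 1.49, 2.12 and 1.77. Every Activator library was below every Control library at the 5 stages from induction on.

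Smc1a to Smc3 lay on the other side of Control. The ratio was 0.679 ± 0.0150 in uninduced Activator and 0.662 ± 0.0383 in uninduced Control cells, and at 12 h it was 1.17, 0.810 and 1.06 in Activator against 0.676, 0.640 and 0.657 in Control. It remained above Control in all 3 Activator libraries at 24 h (1.12, 0.745 and 1.03 against 0.688, 0.644 and 0.636), with replicate 2 nearest to Control. Smc2 to Smc4 was 0.651 ± 0.0565 before induction, 1.13 ± 0.0427 at 3 h and 0.603 ± 0.0392 at 24 h in Activator, against 0.712 ± 0.0168, 0.762 ± 0.0150 and 0.675 ± 0.0272 in Control. Ncapg to Ncaph was 0.706 ± 0.0288 before induction, 0.441 ± 0.0454 at 6 h and 0.680 ± 0.0304 at 24 h in Activator and 0.641 ± 0.0473, 0.681 ± 0.0762 and 0.698 ± 0.0251 in Control. The ratio of Smc4 to Smc3, between the complexes, overlapped between the lines at all 6 stages, with means from 1.81 to 1.94 in Activator from induction on and from 1.75 to 1.87 in Control. After adjustment over the 30 tests no p fell below 0.158, the smallest value reached here.

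**Figure D4:**
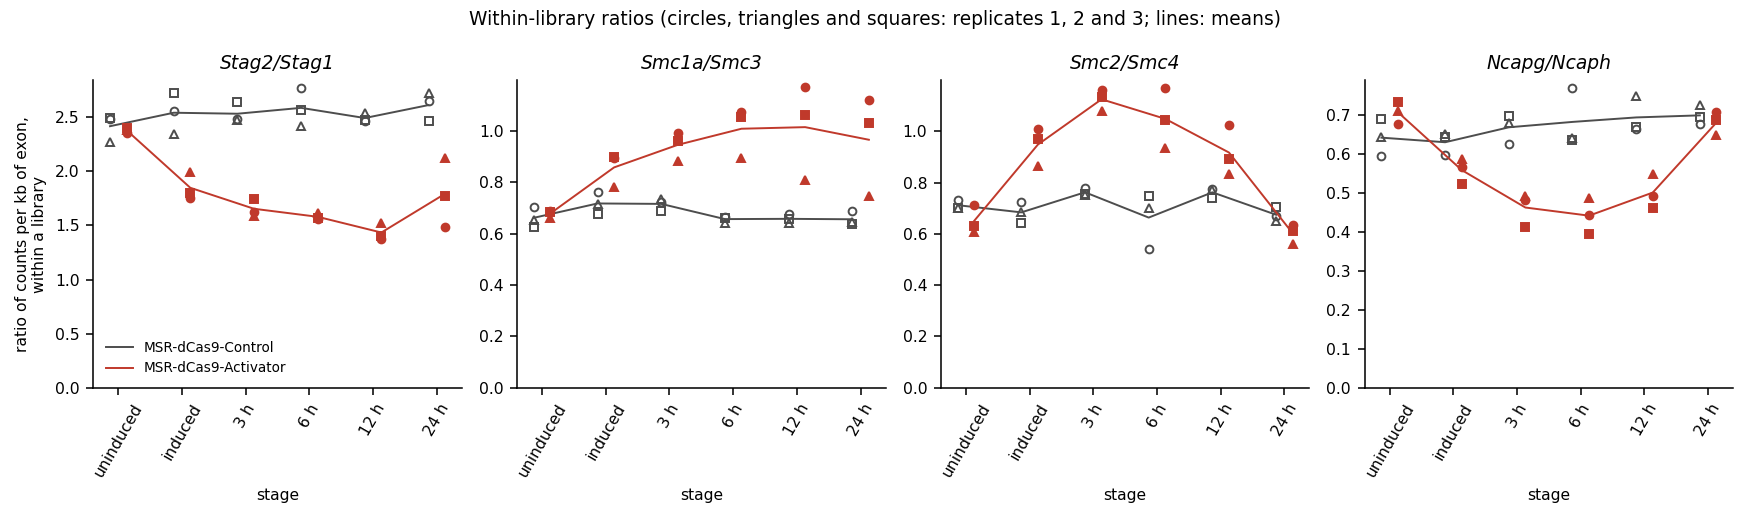
Ratio of counts per kilobase of exon between 2 subunits of a complex (y axis, from 0) in every library at each stage (x axis), Activator filled and Control open, with lines through the means. In Activator the mean of Stag2 to Stag1 is 2.38 uninduced and 1.43 at 12 h, that of Ncapg to Ncaph is 0.441 at 6 h, that of Smc1a to Smc3 is 0.946 and that of Smc2 to Smc4 is 1.13 at 3 h, while the Control means lie between 2.42 and 2.61 for Stag2 to Stag1 and between 0.629 and 0.762 for the other pairs.

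Some of the subunits share sequence with neighbouring annotation. An exon of Ncapg overlaps Lcorl on the opposite strand. Lcorl, a transcriptional regulator gene, was itself higher in Activator, by 1.06 ± 0.09 log2 units at 3 h, and differed by 0.15 ± 0.09 at 24 h (adjusted p = 0.153). The libraries were stranded but the counting strand is not given in the sources used here, so reads of the pair cannot be told apart in the overlap. Ncapd2 shares exonic bases with the small RNA gene Scarna10, which had 40140 counts over all libraries against 351775 for Ncapd2 and was higher in Activator at 24 h (0.64 ± 0.21, adjusted p = 0.00961), where Ncapd2 was lower. An unclassified transcript, Gm37564, opposite Stag2 had 317 counts in all against 271555.

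Among the genes that load, release and position cohesin, none was called higher in Activator cells from induction on. Of Nipbl, Mau2, Wapl, Pds5a, Pds5b and Ctcf, 3 were called lower and 0 higher at the induced stage, 5 at 3 h, all 6 at 6 h, and 5 at both 12 and 24 h, where 25.5, 31.4, 33.3, 34.1 and 29.4% of all genes were called lower. The count at 3 h was 3 without replicate 1, 2 or 3, and that at 12 h was 3 without Activator 12 h replicate 1. Pds5b, a cohesin release factor, had the largest difference at 12 h with -0.94 ± 0.08 log2 units, and at 24 h it was -0.85. At 3 h it was -0.21 and turned to 0.03 without replicate 2, whereas at 12 and 24 h it was called lower under all 18 alternatives.

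The genes that establish, protect or cleave sister chromatid cohesion were mostly called lower. Of 9 genes, 7, 7, 8, 8 and 9 were called lower at the 5 stages from induction to 24 h, beside 25.5, 31.4, 33.3, 34.1 and 29.4% of all genes, with 1 higher at 3 and at 6 h, namely Pttg1, the securin gene. At 12 h 6 of them passed the study's limits, where 10.9% of all genes passed them downwards: Sgo2a, which shields centromeric cohesin (-2.28 ± 0.11), Haspin, the kinase that marks centromeric histone H3 (-1.88 ± 0.12), Espl1, the separase that cleaves Rad21 (-1.85 ± 0.09), the acetyltransferases Esco2 (-1.52 ± 0.12) and Esco1 (-1.0024 ± 0.10), which acetylate Smc3, and Cdca5, the gene of sororin (-1.39 ± 0.10). Sgo2a ranged from 11.4 to 14.6 CPM in Activator and from 61.5 to 61.8 CPM in Control at 12 h, and from 44.3 to 47.3 CPM in uninduced Activator cells. Its difference was already -1.18 at the induced stage, and it was -1.46 at 24 h. All 6 genes were called lower at 12 h under the 18 alternatives, and Pttg1 turned to -0.28 at 6 h under mitochondrial scaling.

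**Figure D5:**
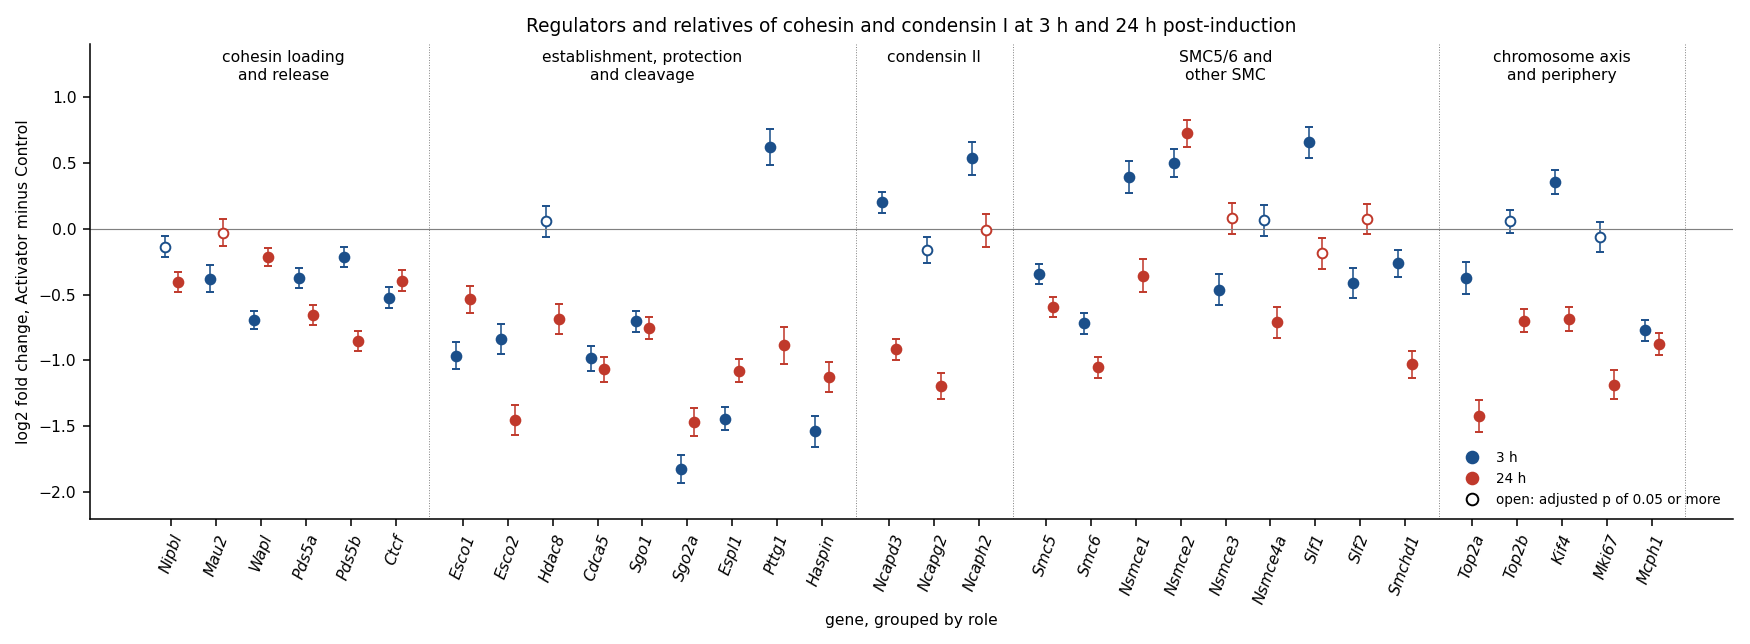
Log2 fold change of Activator over Control (y axis, with standard errors) at 3 h (blue) and 24 h (red) under TMM scaling for 32 genes that regulate or resemble cohesin and condensin I, grouped by role along the x axis, with open symbols where the adjusted p was 0.05 or more. Sgo2a lies at -1.82 and -1.46, Top2a at -0.37 and -1.42, and Pttg1 at 0.62 and -0.88; the values of Pttg1, Ncaph2, Kif4 and Nsmce2 at 3 h are above 0 under TMM and below 0 at 3 or 6 h under mitochondrial scaling.

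The subunits that belong to condensin II alone separated from each other. Ncapg2 and Ncapd3, its HEAT-repeat subunits, were called lower at 12 h, by 0.88 and 0.61 log2 units, and at 24 h, with differences of -1.19 ± 0.10 and -0.91 ± 0.08. Ncaph2, its kleisin, was called higher at 12 h (0.55 ± 0.13), turned to -0.08 there under mitochondrial scaling, and differed by -0.01 ± 0.13 at 24 h. Among 9 genes of the SMC5/6 complex and other SMC proteins, 5 were called lower and 1 higher at 24 h, when 29.4% of all genes were called lower and 34.5% higher. Smc6 (-1.05 ± 0.08), a core subunit of that complex, and Smchd1 (-1.03 ± 0.10), an SMC protein of X inactivation, passed the study's limits, as 4.12% of all genes did downwards. All 5 genes of the mitotic chromosome axis and periphery were called lower at 12 and at 24 h, against 34.1 and 29.4% of all genes. At 12 h the count was 3 without replicate 2, without replicate 3, without either of these libraries of the Activator line alone, or without Control 12 h replicate 3, and at 24 h it was 5 whichever replicate was left out. Top2a, the topoisomerase that works with condensin, ranged from 284 to 342 CPM in Activator and from 772 to 850 CPM in Control at 24 h (-1.42 ± 0.12), followed by Mki67, which coats mitotic chromosomes (-1.18 ± 0.11). Mcph1, an inhibitor of condensin II, was lowest at 12 h (-1.20 ± 0.08).

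Meiotic cohesin subunits, known mainly from germ cells, were detected at low levels in the Activator line. Stag3, the meiotic counterpart of Stag1 and Stag2, was already higher before induction, with 60 to 77 counts per library against 8 to 20 in uninduced Control (log2 difference 2.42 ± 0.41, adjusted p = 0.000792). This call before induction was lost without replicate 2 and without replicate 3, whereas those from induction on held under all 18 alternatives. It reached 7.09 to 7.70 CPM at 12 h, when Control lay between 0.094 and 0.286 CPM, and 1 Control library at 6 h stood apart at 1.62 CPM. Rec8, the meiotic kleisin, was at 3.94 to 5.12 CPM against 0.802 to 1.06 CPM at 12 h (2.31 ± 0.32, adjusted p = 2.14e-07). Rad21l, another meiotic kleisin, had 23 to 52 counts per library in Activator at 12 h and 0 in the Control libraries of that stage. Smc1b, the meiotic SMC1, was at 0.744 to 0.992 CPM against 0.354 to 0.533 CPM (0.83 ± 0.32, adjusted p = 0.0197).

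Genes of the cell cycle took the same late direction. Of 17 proliferation genes, 0 differed by a called amount before induction, 8 were called higher and 4 lower at 3 h under TMM scaling, 1 higher and 10 lower at 12 h, and 16 lower with 0 higher at 24 h. The shares of all genes called at the same 3 stages were 39.6, 41.1 and 34.5% in the higher direction and 31.4, 34.1 and 29.4% in the lower. The 12 proliferation genes called at 3 h became 15 without replicate 2 and 5 without replicate 3, and the 16 at 24 h became 13 without replicate 2 or 3. At 24 h 6 of them passed the study's limits, as 4.12% of all genes did downwards: Cenpf (-1.48), Ccna2 (-1.40), Plk1 (-1.35), Rrm2 (-1.25), Aurkb (-1.23) and Cdk1 (-1.04). Of these, Rrm2, a subunit of ribonucleotide reductase, Cenpf, a kinetochore protein, and Ccna2, cyclin A2, were already at -2.10, -1.74 and -1.72 at 12 h. The median at 12 h was -0.42 for the 17 proliferation genes and -0.10 for the condensin subunits. The part of cell-cycle distribution in the lower subunit levels was not tested.

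Markers of other cell types moved with the Activator line as well. From induction on, the summed level of 10 fibroblast markers ranged from 10821 to 29539 CPM in Activator libraries, against 22217 to 34421 CPM in Control and uninduced Activator libraries, and at 24 h 6 of the 9 that could be tested were called lower and 1 higher, when 29.4% of all genes were called lower and 34.5% higher. Over the same libraries the summed endothelial markers went from 0.092 to 0.873 CPM up to 5.32 to 33.5 CPM, testis markers from 0.33 to 1.05 up to 3.02 to 14.3 CPM, and liver markers from 0 to 0.145 up to 0.943 to 8.21 CPM. Epithelial markers (0.466 to 1.74 against 0.933 to 3.54 CPM), blood markers (3.76 to 5.52 against 3.51 to 8.65 CPM), pluripotency markers (0.33 to 1.09 against 0.76 to 3.64 CPM) and nervous system markers (47.7 to 71.1 against 24.3 to 57.8 CPM) overlapped. At 24 h 2 of the 4 blood markers were at 0 in all libraries of either line, and every marker of the other lists was detected in Activator. Their part in the subunit values was not tested.

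Over the 12 group means, the genes whose profile most resembled the mean of the 5 cohesin subunits among 13619 genes were Rfc3 (Pearson r = 0.991), Prim2 (0.989) and Thoc7 (0.985). Rfc3 and Prim2 encode a clamp loader subunit and a primase subunit of DNA replication. Those nearest to condensin I were Kif4, a chromosome-bound kinesin (0.991), Prc1, a spindle midzone protein (0.990), and Hsp90b1, a chaperone of the endoplasmic reticulum (0.986). The subunits' own r with the mean of their complex ran from 0.543 for Stag2 to 0.941 for Rad21 and from 0.824 for Ncapg to 0.978 for Ncaph. These correlations describe 12 groups that share libraries, scaling and time points, and carry no test.

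Promoters were compared because the condensin genes were lower together at 24 h while Stag1 was not. RefSeq sequence on GRCm38.p6, 300 bases around the gene start, was at hand for 7 of the 10 subunits, and Rad21, Stag2 and Smc4 are named only. Words of 3 elements known from cell-cycle promoters were searched on both strands: the CHR element (TTTGAA or TTCGAA), the CCAAT box (CCAAT) and the E2F site (TTTCCCGC, TTTCGCGC, TTTGCCGC or TTTGGCGC). The CHR words were found in 3 of the 7 promoters, against 19.2% of 32851 mouse promoters of the same length, CCAAT in 5 of 7 against 37.4%, and the E2F words in 4 of 7 against 2.26%. Ncapd2 (chr6:125191537-125191836, minus strand) held all 3 kinds, as did Ncapg (chr5:45669675-45669974, plus strand). Smc2 (chr4:52438971-52439270, plus strand) held 2 CHR words and a CCAAT box, and Ncaph (chr2:127133905-127134204, minus strand), whose level was also lower at 24 h, held none of these words in the window. Stag1 (chr9:100643198-100643497, plus strand; this RefSeq start lies inside the gene as annotated above) held a CCAAT box and an E2F word but no CHR word. These 5 sequences follow, 5′ to 3′ along the gene, with matches in capitals.
Ncapd2: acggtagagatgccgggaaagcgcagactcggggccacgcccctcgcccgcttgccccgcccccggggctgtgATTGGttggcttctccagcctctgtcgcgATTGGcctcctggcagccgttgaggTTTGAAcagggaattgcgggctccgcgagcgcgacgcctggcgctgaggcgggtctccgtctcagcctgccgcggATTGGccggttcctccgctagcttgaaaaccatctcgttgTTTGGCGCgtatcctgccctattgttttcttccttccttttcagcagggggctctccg
Ncapg: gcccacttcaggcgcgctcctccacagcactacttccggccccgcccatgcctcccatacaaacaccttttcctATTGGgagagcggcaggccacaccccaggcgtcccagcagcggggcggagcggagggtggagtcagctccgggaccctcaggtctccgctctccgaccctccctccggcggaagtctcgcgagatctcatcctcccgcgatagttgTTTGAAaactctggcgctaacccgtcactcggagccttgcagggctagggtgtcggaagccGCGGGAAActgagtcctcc
Smc2: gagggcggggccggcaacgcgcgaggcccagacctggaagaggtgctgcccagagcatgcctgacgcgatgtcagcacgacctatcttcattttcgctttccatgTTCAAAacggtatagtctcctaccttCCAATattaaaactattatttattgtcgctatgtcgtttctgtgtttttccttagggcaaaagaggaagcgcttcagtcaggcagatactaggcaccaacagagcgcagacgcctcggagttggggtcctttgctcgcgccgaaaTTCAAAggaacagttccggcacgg
Ncaph: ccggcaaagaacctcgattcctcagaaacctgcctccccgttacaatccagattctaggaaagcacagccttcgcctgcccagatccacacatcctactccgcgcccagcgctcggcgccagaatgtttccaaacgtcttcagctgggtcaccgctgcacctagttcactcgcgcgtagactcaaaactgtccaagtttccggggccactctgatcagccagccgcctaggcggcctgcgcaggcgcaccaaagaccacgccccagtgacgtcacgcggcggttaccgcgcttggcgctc
Stag1: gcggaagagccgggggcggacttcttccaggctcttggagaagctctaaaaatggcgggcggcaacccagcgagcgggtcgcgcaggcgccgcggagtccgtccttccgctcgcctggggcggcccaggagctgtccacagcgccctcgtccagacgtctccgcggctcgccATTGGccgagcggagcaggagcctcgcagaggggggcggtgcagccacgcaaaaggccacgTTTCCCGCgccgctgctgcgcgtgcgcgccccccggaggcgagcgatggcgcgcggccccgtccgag
The words are matches of letters and not sites of binding. Smc1a, which was not called lower at 24 h, also held a CCAAT box and an E2F word, and Smc3, which was, held none of the 3.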

How the data were processed

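Total RNA of 36 cultures was sequenced as stranded, ribosome-depleted, paired-end libraries. The authors trimmed the reads, aligned them to the mouse genome (GRCm38, mm10) and deposited raw counts for 54842 genes and 1561 repeat families, without normalisation. The counting strand and annotation release are not given in the sources used here. One unnamed row, at most 0.00452% of the counts of a library, was left out. Gene names matched the GENCODE annotation of GRCm38 for 54495 genes.

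Counts were analysed as deposited with edgeR 4.0.16 in R 4.3.3: 12 groups plus the replicate number as a block (the study's DESeq2 design also had a replicate term), TMM factors, filterByExpr (28536 genes kept) and quasi-likelihood tests with Benjamini-Hochberg adjustment over all genes kept, called at an adjusted p under 0.05. Standard errors were taken as the log2 difference over the root of its F statistic. The 12 groups shared a common estimate of the spread per gene, although Activator replicates of some subunits spread more than Control ones. The study's limits were a mean over 100, a fold over 2 and an adjusted p under 0.05. Depth ran from 27376846 to 57371803 gene counts, and reads carry no molecular identifiers. Replicates were biological per the study's methods, but how they were separated is not given in the sources used here, so p-values measure the spread between these samples. Same-numbered replicates of the lines deviated together in 16 of 18 pairs at r above 0.1 (-0.0281 to 0.518).

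Alternatives were DESeq2 1.42.0, limma 3.58.1 (voom), other scalings, no filter, no block, fewer groups and libraries left out. For fits with a replicate or a library left out, the shares of all genes called are not given. Counts of genes called in those fits cannot be set against such shares. On data simulated for the 24 h comparison (26268 genes), 80 of 100 genes changed by a log2 of 1 and 31 of 100 changed by 0.5 were called, with 6 false calls. In that simulation no other gene changed, rises and falls were balanced, replicates had no shared effect and both lines had the same spread. In the data 63.9% of genes were called at 24 h, so these figures do not give the false calls or the power there. All 10 subunits were named. From the other gene lists those past the study's limits at any stage were named, or else the gene with the largest difference at 12 h, and meiotic and condensin II genes freely. The members, the lists and the subunit ratios were chosen with earlier results of these data known.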

Additional observations from a re-analysis of the deposited data

Results flagged for a closer look

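The subunits below were singled out because their change over time differed between the lines in a test of the difference itself (edgeR, quasi-likelihood, adjusted over all genes). The values are log2 differences, Activator change minus Control change, under TMM scaling.

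On induction the change was 0.67 for Smc2, 0.55 for Ncaph, 0.52 for Rad21 and 0.51 for Stag1. Under mitochondrial scaling 0 of these 4 tests passed the threshold, and 2 passed without the replicate block. Of 28536 genes, 4127 were called higher under TMM scaling, 1882 under mitochondrial scaling and 3220 without the block.

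From the uninduced stage to 24 h post-induction it was -0.77 for Ncapg, -0.73 for Ncapd2, -0.59 for Ncaph, -0.56 for Smc2, -0.53 for Stag2, -0.53 for Smc4 and -0.44 for Smc3. In place of these 7, 3 subunits were called by DESeq2 and with its size factors, 4 when only the groups compared entered the fit, and 2 without replicate 3. Of 28536 genes, 5337 were called lower under TMM scaling, 4062 by DESeq2 and 3615 with its size factors. With only the groups compared, 3189 of 24355 genes were called lower.

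From 12 to 24 h post-induction the difference between the lines moved by -0.84 for Smc2, -0.82 for Ncaph, -0.77 for Ncapd2, -0.53 for Rad21, -0.43 for Smc3 and -0.38 for Stag1. In place of these 6, 0 were called under mitochondrial scaling, 3 without the replicate block, and 0 without replicate 1 or without replicate 3. Under TMM scaling 1820 of 28536 genes were called lower, under mitochondrial scaling 80, and without the block 1076. Stag2 and Ncapg, which were already lower at 12 h, moved by -0.14 and -0.38 and did not pass the test.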

How the results depend on the processing

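Counts of subunits called, out of 10, are given here by setting. When only the groups compared entered the fit, 6 were called between the lines at the induced stage, 4 in Activator from uninduced to 24 h, 3 and 1 in Control on induction and at 24 h, and 7, 4 and 2 for the changes on induction, to 24 h and from 12 to 24 h. These fits called 6077 of 22855 genes higher and 5785 lower between the lines at the induced stage. For the 3 changes they called 4778, 3615 and 1176 genes higher and 5394, 3189 and 483 lower, of 23439, 24355 and 26957. The study's limits gave 0 in every comparison. Under mitochondrial scaling the counts were 9 at 12 h, 10 in the additive model, 4 in Activator on induction, and 0 for the changes on induction and from 12 to 24 h. For the first 3 of these, 13851, 15330 and 13769 of 28536 genes were called lower. For the changes on induction and from 12 to 24 h, 1882 and 2684 genes were called higher and 6030 and 80 lower. Library size without TMM gave 7 at 12 h (2 higher and 5 lower) and 3 for the change from 12 to 24 h, where repeats in the library size also gave 3. Of 28536 genes, library size without TMM called 11028 higher and 10437 lower at 12 h. From 12 to 24 h these scalings called 766 and 654 genes lower, against 1820 with TMM. DESeq2 and its size factors each gave 3 for the change to 24 h, where they called 4062 and 3615 genes lower. Without the replicate block the counts were 2 for the change on induction, 3 from 12 to 24 h, and 8 between the lines at 24 h, as with it. That fit called 3220, 1568 and 9358 of 28536 genes higher and 3678, 1076 and 7122 lower in these comparisons.

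Leaving out a replicate or a library gave 0 to 0 uninduced, 0 to 8 induced, 4 to 10 for 3 h, 4 to 8 for 6 h, 2 to 7 for 12 h, 7 to 8 for 24 h and 3 to 5 in the additive model. It gave 5 to 10 and 6 to 8 in Activator on induction and at 24 h, 0 in Control, and 0 to 7, 2 to 7 and 0 to 9 for the 3 changes. These ranges count calls in both directions together. Between the lines at 24 h without replicate 2, for example, Smc1a was called higher, at 0.32. The shares of all genes called in these fits are not given, so the ranges cannot be set against them.

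Reversals are listed where the sign changed and the subunit was called in the main fit or in the alternative. Sign changes called in neither are left out. At the induced stage 8 subunits lay above 0 under TMM scaling and 3 under mitochondrial scaling. Directions reversed in this sense under mitochondrial scaling for Smc4 (-0.31) and Ncapg (-0.33) at the induced stage. At 3 h they did for Smc1a (-0.13), Smc3 (-0.53), Rad21 (-0.0562), Stag1 (-0.0674), Smc4 (-0.48), Ncapd2 (-0.0676), Ncapg (-0.55) and Ncaph (-0.0223), and at 6 h for Smc1a (-0.13), Rad21 (-0.23), Stag1 (-0.13), Smc2 (-0.0807), Ncapd2 (-0.33) and Ncaph (-0.27). At 12 h they did for Smc1a (-0.17), Rad21 (-0.43), Stag1 (-0.33), Smc2 (-0.48) and Ncapd2 (-0.63, and -0.23 with repeats in the library size). Without replicate 2, Stag2 at 3 h (0.19), Smc3 (0.27) and Smc4 (0.26) at 6 h and Smc1a at 24 h (0.32) reversed, and over the libraries left out their lowest values were -0.11, -0.15, -0.11 and -0.17. The cause was not tested. At 24 h Smc3, Stag2, Smc2, Ncapd2, Ncapg and Ncaph were called lower in all 18 alternatives of test, scaling, filter and libraries.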
